A study of Mus musculus with 2 samples.

Results

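The 78 genes of the mitochondrial ribosomal protein family were examined by RNA-seq in mouse primordial germ cells (PGCs), from which eggs and sperm later develop. The members were every gene whose symbol began with Mrpl or Mrps followed by a number, with the 4 rows named as pseudogenes left out, which gave 78 of the 18877 genes in the table (49 Mrpl and 29 Mrps). Both libraries belonged to 1 group, PGCs of C57BL/6 mouse embryos at embryonic day 9.5 enriched by antibody selection for SSEA1, a surface antigen, and were numbered replicate 1 and replicate 2. The study's methods describe the embryos as female and the libraries as Smart-seq2, while the sample labels name another library kit, so the chemistry is uncertain. Nothing in the labels says whether the replicates came from separate pools of embryos, and with 1 group of 2 libraries no test between conditions could be made.

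Mitochondria keep their own ribosome, the mitoribosome, which translates the few mRNAs of the mitochondrial genome, all of which encode subunits of the respiratory chain and ATP synthase. Its rRNAs are encoded by the mitochondrial genome, whereas every one of its proteins is encoded in the nucleus, made in the cytosol and imported. The large subunit (mostly Mrpl genes) forms the peptide bond, the small subunit (mostly Mrps genes) reads the mRNA, and each is built from proteins with a bacterial homologue and from others acquired by mitochondria.

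Of the 82 known mitoribosome proteins, 77 were members, and the other 5 carry unrelated symbols (Dap3, Ptcd3, Chchd1, Aurkaip1 and Gadd45gip1). Mrps36 is the remaining member, and is now known to be a component of the 2-oxoglutarate dehydrogenase complex rather than of the ribosome. Mrps30 and Mrps18a, despite their names, sit in the large subunit. All 78 members were annotated as protein-coding, and they lay on 17 of the 19 autosomes, with 11 on chromosome 11, 8 on chromosome 17 and 7 on chromosome 6, and none on the X chromosome.

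Promoters were available for 69 of the members in the RefSeq promoter table (build GRCm38.p6, from 250 bases before to 50 bases after each start). They were searched on both strands for the core letters bound by 3 factors known to act at genes of mitochondrial proteins, which are GCGCATGC (NRF1), CCGGAAG (the ETS family, which includes GABPA) and AAGATGGC (YY1). The NRF1 letters can overlap their own reverse complement, and such matches were counted once per gene. At least 1 of the 3 motifs was present in 38 of the 69 members (55.1%), against 14.9% of all 27025 genes in the promoter table. The ETS letters were in 26 members (37.7%, against 9.93% of genes), the YY1 letters in 12 (17.4%, against 3.19%) and the NRF1 letters in 8 (11.6%, against 3.05%). TATAAA, the TATA box core, was in 5 members (7.25%), against 15.7% of genes. The median level of members with a motif and of those without it was 6.48 and 6.25 on the log2(TPM + 1) scale for ETS, 6.41 and 6.36 for YY1 and 5.99 and 6.43 for NRF1, with no common direction. The shares over genes were not limited to expressed genes, whereas all members were expressed, so they do not show a trait particular to the members. A match in these letters is a description of the sequence and does not show that a factor was bound.

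Within the last 100 bases before a start site, 20 members held a match, 15 of them to ETS, 5 to NRF1 and 1 to YY1, so the other YY1 matches lay further upstream, beyond the start or at another start. The 100 bases directly upstream of the start are shown for the most abundant member, for the most abundant members with each motif in that stretch, and for Mrpl32, which had the most matches. Capitals mark the motif letters on either strand, and each sequence reads 5′ to 3′ towards its gene.
Mrpl42 (chr10:95501950-95502049, minus strand, no motif): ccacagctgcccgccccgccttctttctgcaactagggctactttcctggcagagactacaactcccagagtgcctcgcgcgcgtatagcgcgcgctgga
Mrpl33 (chr5:31613851-31613950, plus strand, NRF1): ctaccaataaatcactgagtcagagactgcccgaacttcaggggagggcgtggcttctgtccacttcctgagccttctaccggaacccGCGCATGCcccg
Mrpl22 (chr11:58171564-58171663, plus strand, ETS and NRF1): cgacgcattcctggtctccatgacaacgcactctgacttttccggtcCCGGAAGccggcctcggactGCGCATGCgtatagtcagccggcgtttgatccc
Mrpl34 (chr8:71464826-71464925, plus strand, ETS): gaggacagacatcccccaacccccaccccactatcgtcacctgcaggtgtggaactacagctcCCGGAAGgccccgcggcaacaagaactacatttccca
Mrpl36 (chr13:73330909-73331008, plus strand, YY1): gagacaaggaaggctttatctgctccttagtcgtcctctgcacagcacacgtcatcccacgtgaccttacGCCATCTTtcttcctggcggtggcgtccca
Mrpl32 (chr13:14613038-14613137, minus strand, NRF1): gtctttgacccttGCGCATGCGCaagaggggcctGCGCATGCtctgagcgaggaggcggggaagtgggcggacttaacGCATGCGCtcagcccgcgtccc
In Mrpl22 the ETS letters began 53 bases and the NRF1 letters 33 bases before the start. In Mrpl32 the NRF1 letters were found at 4 positions, beginning 87, 85, 66 and 22 bases before the start, of which the first pair overlap. Mrpl42, the highest member by a wide margin, held none of the 3 motifs here.

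Every member was expressed. TPM is a relative measure of transcripts, corrected for the length of the gene and for the depth of the library, and levels were also taken as log2(TPM + 1). All 78 members reached 1 TPM in both replicates, as did 60.0% of all genes. In both replicates 74 members reached 10 TPM (25.3% of all genes) and 31 reached 100 TPM (6.10% of all genes). The median member stood at 76.0 TPM in replicate 1 and 72.5 TPM in replicate 2, which is 6.27 and 6.20 on the log2 scale (6.23 ± 0.0472, SD, n = 2). The median of all genes was 1.89 and 1.85 on that scale, so the members' median was higher by 4.38 and 4.35. Among the protein-coding genes alone the median was 2.29 and 2.21. The sum over the members was 13834 and 13934 TPM in the respective replicates, or 1.39% of all TPM. Among the 10% of genes with the highest values were 49 members in replicate 1 and 50 in replicate 2. The lower limit was set by Mrpl10, which ranked above 63.5% of genes in replicate 1 and above 42.7% in replicate 2, and it was the one member below the median of all genes in a library.

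**Figure D1:**
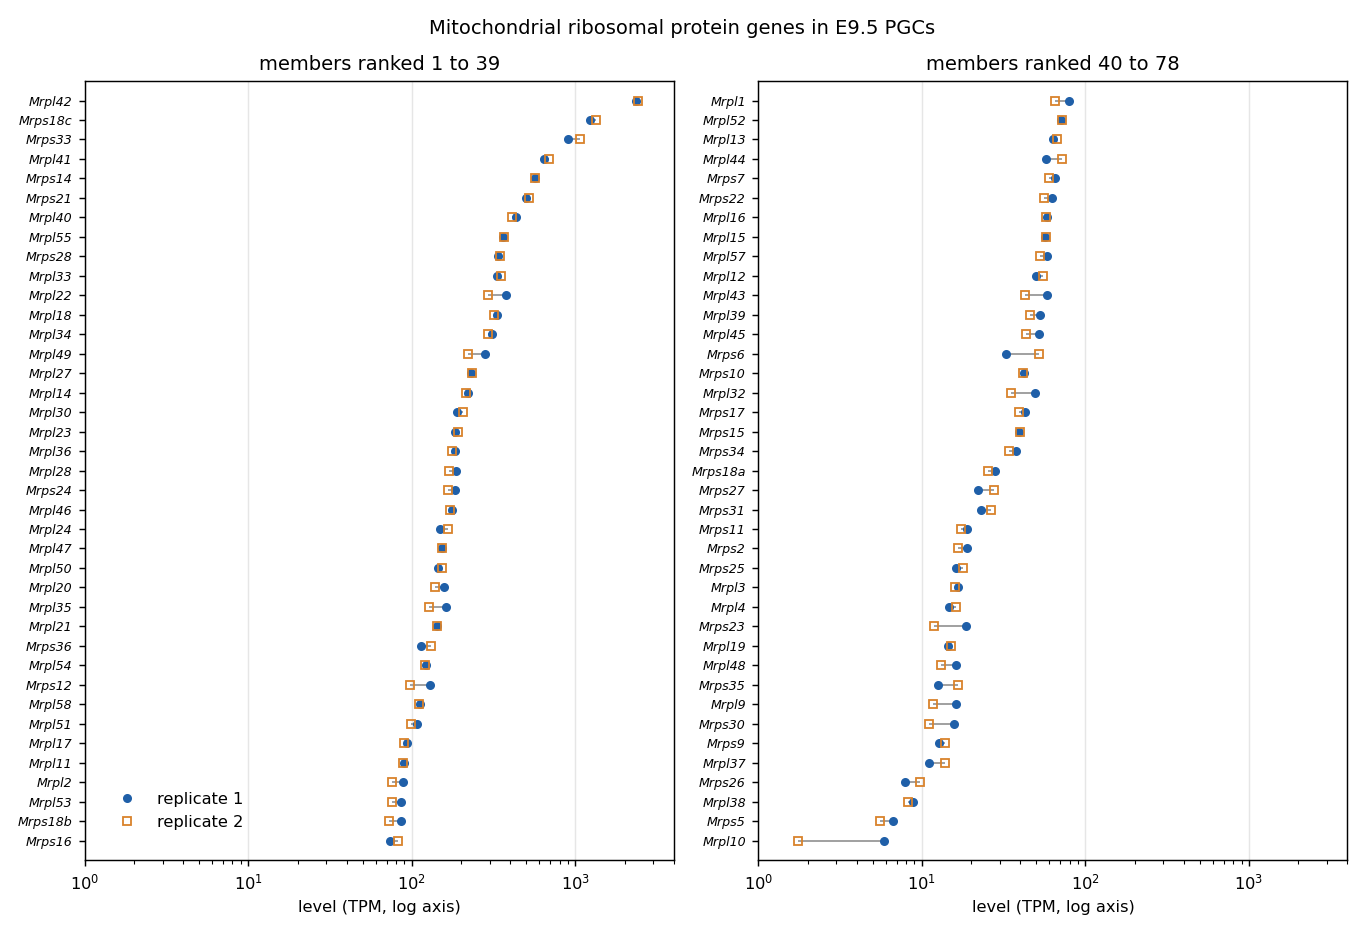
Level of each of the 78 members in E9.5 PGCs (TPM, log axis) in replicate 1 (filled circles) and replicate 2 (open squares), ordered by the mean of both and joined by a line. The points of a gene lie close together over the whole range from Mrpl42, with a mean of 2388 TPM, to Mrpl10, the only gene with points over 2-fold apart on the log2(TPM + 1) scale.

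Markers of the labelled cell type were present, and so were globins of red cells. All 10 PGC markers reached 1 TPM in both replicates, as did 60.0% of all genes, so this threshold alone does not mark the cell type. It was also reached by all 3 neural markers, 3 of 4 macrophage markers and 4 of the 5 red cell markers with a row. Of the 4 mesenchyme markers 1 reached it, and no endothelial or gut endoderm marker did. The PGC markers ran from Pou5f1 at 1.54 and 1.46 TPM, below the median of all genes (2.71 and 2.61 TPM), to Dppa3 at 5013 and 5075 TPM. Red cell markers had sums of 3975 and 3762 TPM, over 5 of 6 genes with a row. The globins Hba-x, Hbb-y, Hbb-bh1 and Hba-a1 made up nearly all of it, from 271 and 237 TPM (Hbb-bh1) to 2331 and 2065 TPM (Hba-x). Klf1 had only 0.275 and 1.56 TPM, and Gata1 had no row. The 4 macrophage markers summed to 19.4 and 9.53 TPM, the 4 endothelial markers to 4.71 and 1.01 TPM, the 4 mesenchyme markers to 2.37 and 3.95 TPM and the 3 neural markers to 6.41 and 7.05 TPM. Of the gut endoderm markers Foxa1 was listed at 0 in both libraries and Foxa2 reached 0.505 TPM in replicate 2 alone. The part of other cells in the members' levels was not tested, and in such bulk samples fewer cells of a type and less RNA per cell cannot be told apart. Depth was recovered as 15912466 reads in replicate 1 and 5458695 in replicate 2, because the TPM values multiplied by exonic length were whole multiples of 1 amount. Whole reads were recovered in both libraries for 71 members, with a median of 1775 reads in replicate 1 and 583 in replicate 2. Reads are not given for the other 7 (Mrps6, Mrpl11, Mrpl16, Mrpl28, Mrpl40, Mrpl43 and Mrpl49), and intervals on reads are exact 95% Poisson intervals that cover counting error only.

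Levels differed greatly between genes, although most of their products are present once per ribosome. The highest member exceeded the lowest 401-fold in replicate 1 and 1387-fold in replicate 2, and the 90th percentile of the members exceeded the 10th 24.9-fold and 26.1-fold. The 5 highest members made up 41.1% and 43.7% of the members' TPM. Mrpl42, a mitochondria-specific protein of the large subunit, was the highest, at 2347 TPM in replicate 1 and 2428 TPM in replicate 2 (2388 ± 57.2, SD, n = 2), from 82162 and 29891 reads. It alone made up 17.0% and 17.4% of the members' TPM and ranked 57 among all genes in either library. Mrps18c, 1 of 3 homologues of bacterial S18, followed at 1221 and 1333 TPM (1277 ± 79.3). Mrps33, a mitochondria-specific protein of the small subunit, had 908 and 1074 TPM (991 ± 117).

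Mrpl41, another mitochondria-specific large subunit protein, was at 642 and 685 TPM. The small subunit proteins Mrps14 and Mrps21, both with a bacterial homologue, were at 570 and 563 TPM and at 500 and 519 TPM. Mrpl40, of the central protuberance, stood at 432 and 412 TPM. For these 7 members the values of both replicates overlapped with those of no other member, so their order was the same in each library. Mrpl55 had 359 and 365 TPM, Mrps28 had 338 and 345 TPM and Mrpl33 had 331 and 350 TPM. Mrps28 and Mrpl33 overlapped with each other and, like Mrpl55, with Mrpl22 (375 and 291 TPM).

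At the low end stood Mrpl10, which anchors the flexible stalk that recruits translation factors, at 5.85 TPM in replicate 1 and 1.75 TPM in replicate 2 (3.80 ± 2.90, SD, n = 2), from 95 and 10 reads. Mrps5, which lines the mRNA entry of the small subunit, was at 6.68 and 5.50 TPM (6.09 ± 0.836). Mrpl38, of the central protuberance, was at 8.79 and 8.21 TPM (8.50 ± 0.407). Unlike Mrpl10 in replicate 2, Mrps5 and Mrpl38 were still read many times, with 418 and 121 reads for Mrps5 and 213 and 70 for Mrpl38. The mitochondria-specific small subunit protein Mrps26 had 7.85 and 9.68 TPM, and Mrpl37 of the large subunit had 11.1 and 13.8 TPM. Mrps9, with a bacterial homologue, had 12.7 and 13.8 TPM, Mrps30 had 15.7 and 11.0 TPM and Mrpl9 had 16.1 and 11.6 TPM. Mrps35 was at 12.5 and 16.5 TPM, and Mrpl48 at 16.1 and 13.1 TPM. The values of Mrpl10 overlapped with those of Mrps5, and the values of Mrpl38 with those of Mrps26. From Mrpl37 upwards the values of these low members overlapped with one another.

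The median gene of the large subunit was higher than that of the small subunit. The 49 Mrpl genes had a median of 108 TPM in replicate 1 and 99.1 TPM in replicate 2, and the 29 Mrps genes had 39.5 and 39.6 TPM. On the log2 scale the Mrpl median exceeded the Mrps median by 1.43 and 1.30 (1.37 ± 0.0908, SD, n = 2). With all 82 proteins assigned by structure rather than by name, the 52 of the large subunit exceeded the 30 of the small subunit by 1.13. The means lay closer together than the medians, at 188 and 184 TPM per Mrpl gene and 160 and 169 TPM per Mrps gene, since 3 Mrps genes (Mrps18c, Mrps33 and Mrps14) and 2 Mrpl genes (Mrpl42 and Mrpl41) reached 500 TPM in both replicates.

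Bacterial-type members, with a bacterial homologue, were higher at the median than mitochondria-specific ones, by 0.64 in replicate 1 and 0.75 in replicate 2 (0.70 ± 0.0790, SD, n = 2). Mrps18a and Mrps18b were counted as mitochondria-specific, although they are homologues of bacterial S18. The 30 bacterial-type large subunit genes had medians of 7.19 and 7.06 on the log2 scale, and the 21 mitochondria-specific ones 6.17 and 6.20. In the small subunit the 16 bacterial-type genes had 5.75 and 5.82, and the 10 mitochondria-specific genes 4.55 and 4.81. The classes overlapped, with an SD over genes of 1.55 to 2.11 within a class in replicate 1. The highest gene of each class but the first stood far above its median, namely Mrpl42, Mrps18c and Mrps33. With the length of coding transcripts in place of all exons, an alternative chosen after seeing the data, the bacterial-type excess was 1.47 instead of 0.70.

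**Figure D2:**
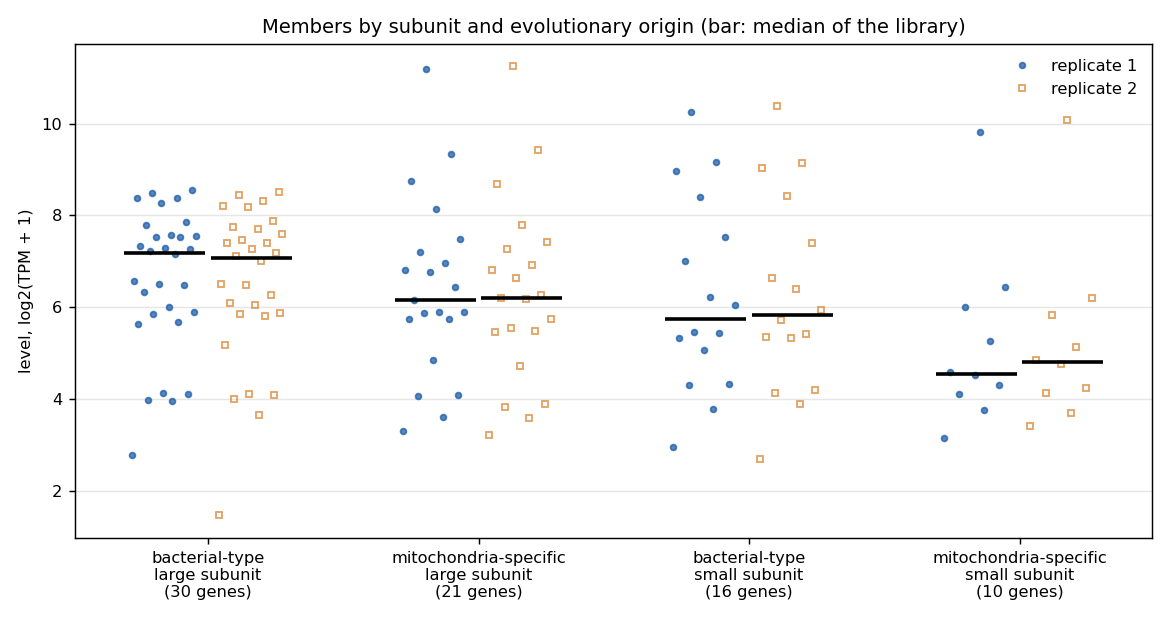
Level on the log2(TPM + 1) scale of the members that are mitoribosome subunits, by subunit and by class (bacterial-type or mitochondria-specific), in replicate 1 (filled circles) and replicate 2 (open squares). Bars mark the median of each library. Mrps18a and Mrps18b, homologues of bacterial S18, are among the mitochondria-specific genes. The medians fall from 7.19 and 7.06 in the bacterial-type large subunit class to 4.55 and 4.81 in the mitochondria-specific small subunit class, while the genes of the 4 classes overlap.

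The functional centres of the large subunit were unevenly represented. Around the peptidyl transferase centre, where the peptide bond is made, Mrpl27 was highest at 232 TPM in replicate 1 and 234 TPM in replicate 2. Mrpl2 had 88.1 and 75.9 TPM and Mrpl16 had 58.5 and 57.6 TPM. Mrpl3 was well below these at 16.6 and 15.9 TPM, and the deposited values of these 4 genes did not overlap. Per coding transcript length Mrpl16 (90.8 and 89.3 TPM) stood above Mrpl2 (58.8 and 50.6 TPM).

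Around the exit tunnel, through which the nascent chain leaves, all 6 genes lay above 40 TPM as deposited, with a median of 7.24 and 7.33 on the log2 scale. Mrpl22 had 375 and 291 TPM, Mrpl23 had 183 and 191 TPM, Mrpl24 had 148 and 167 TPM, and Mrpl47 had 152 and 153 TPM. Mrpl17 stood at 93.7 and 90.1 TPM. Mrpl45, a mitochondria-specific protein that links the tunnel exit to the inner membrane, was the lowest at 52.2 and 43.4 TPM.

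The stalk and the central protuberance each held both high and low genes. Mrpl11 and Mrpl12, the partners of Mrpl10 at the stalk, were at 89.4 and 88.3 TPM and at 50.1 and 55.3 TPM, so that Mrpl10 was lower than either in both libraries. In the central protuberance, which contacts the small subunit and the tRNAs, Mrpl40 (432 and 412 TPM) was followed by Mrpl46 (177 and 171 TPM) and Mrpl58 (112 and 110 TPM). Mrpl58 is a peptidyl-tRNA hydrolase that also rescues stalled ribosomes. Mrpl48 and Mrpl38, of the same structure, were each below 17 TPM in both libraries as deposited, while per coding transcript length Mrpl48 was at 86.4 and 70.0 TPM.

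In the small subunit, the decoding protein Mrps12 was at 128 and 98.1 TPM and the mRNA entry protein Mrps24 at 184 and 166 TPM, whereas Mrps5 at the same entry was below 7 TPM. The 3 homologues of bacterial S18 arose from a common ancestor and occupy different places in the ribosome. Mrps18c, of the small subunit, exceeded Mrps18b (86.2 and 72.7 TPM), also of the small subunit, and Mrps18a (28.0 and 25.5 TPM), of the large subunit, and the 3 sets of values did not overlap. Mrps36, the member that is not a ribosomal protein, was at 114 and 131 TPM (122 ± 12.0, SD, n = 2).

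The 5 mitoribosome proteins without an Mrp symbol lay within the range of the members. Chchd1, of the small subunit, had 847 and 918 TPM, and Aurkaip1, also of the small subunit, had 245 and 248 TPM. Gadd45gip1 of the large subunit had 18.5 and 21.7 TPM, Dap3, a GTP-binding protein of the small subunit, had 19.4 and 20.3 TPM, and Ptcd3, an RNA-binding protein at the mRNA entry, had 11.6 and 12.8 TPM. With them included and Mrps36 left out, the 82 mitoribosome genes had a median of 6.19 in each library on the log2 scale.

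The other genes of mitochondrial translation were lower than the ribosomal proteins at the median. The 10 translation factors all reached 1 TPM in both replicates, with medians of 3.46 and 3.33 on the log2 scale. Their range was narrow, from Mrrf, the recycling factor, at 4.42 and 6.68 TPM to the elongation factor Gfm1 at 17.9 and 17.9 TPM. The initiation factors Mtif2 and Mtif3 were at 14.1 and 12.8 TPM and at 7.76 and 9.28 TPM. The elongation factors Tufm and Tsfm were at 15.9 and 8.02 TPM and at 14.6 and 8.86 TPM. Both had the lower value in replicate 2, while the release factors Mtrf1 (10.1 and 15.4 TPM) and Mtrf1l (9.84 and 14.4 TPM) had the higher values there. Gfm2, which acts in recycling, had 7.71 and 7.84 TPM and Guf1 had 9.22 and 6.60 TPM.

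Of the 24 ribosome assembly factors, 20 reached 1 TPM in both replicates, and their median was 2.83 and 2.96. C1qbp was far above the rest at 228 and 245 TPM, followed by Malsu1 (44.8 and 42.8 TPM) and Tfb1m (27.2 and 30.0 TPM). The lowest were Mettl17 (1.01 and 0.301 TPM), Ybey (0.369 and 0.420 TPM) and Nsun4 (0.263 and 0.449 TPM), an rRNA methyltransferase. Of the 19 mitochondrial aminoacyl-tRNA synthetases, which charge tRNAs with amino acids, 16 reached 1 TPM, with a median of 3.13 and 2.91. Gars, which serves the cytosol as well, was highest at 61.3 and 63.3 TPM, before Yars2 (34.4 and 33.7 TPM) and Rars2 (30.0 and 37.7 TPM). Wars2 (0.832 and 1.16 TPM), Vars2 (1.02 and 0.822 TPM) and Pars2 (0.374 and 1.06 TPM) were lowest.

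Among the 7 genes of mitochondrial transcription, mRNA upkeep and membrane insertion, Slirp, which binds mitochondrial mRNAs, stood at 728 and 842 TPM. Its partner Lrpprc was at 39.2 and 34.7 TPM. The mitochondrial DNA-binding factor Tfam had 41.7 and 40.8 TPM, Tfb2m had 9.23 and 8.0 TPM and the RNA polymerase Polrmt 1.98 and 1.98 TPM. Oxa1l, the insertase that receives new chains from the ribosome, had 11.6 and 11.3 TPM. Taco1 had 5.48 and 1.08 TPM, the latter from 5 reads. The rRNAs that the members assemble with were listed at 1188 and 1198 TPM (mt-Rnr1, small subunit) and at 2578 and 2518 TPM (mt-Rnr2, large subunit). How rRNA was primed or removed is uncertain here, so these values are not set against the members.

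Relative to the ribosome of the cytosol, the members were low. The 84 cytosolic ribosomal protein genes had medians of 9.33 and 9.50 on the log2 scale, and the members' median minus theirs was -3.07 in replicate 1 and -3.30 in replicate 2 (-3.18 ± 0.163, SD, n = 2). The 83 nuclear genes of oxidative phosphorylation (OXPHOS), whose products share complexes with the proteins that the mitoribosome makes, had medians of 8.80 and 8.85. The members' median minus this one was -2.54 and -2.65 (-2.60 ± 0.0826). Several members nevertheless overlapped with the reference lists, since Mrpl42, Mrps18c and Mrps33 lay above the median of both. Many cytosolic ribosomal protein genes have processed pseudogenes, and how reads were shared among such copies is not stated.

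**Figure D3:**
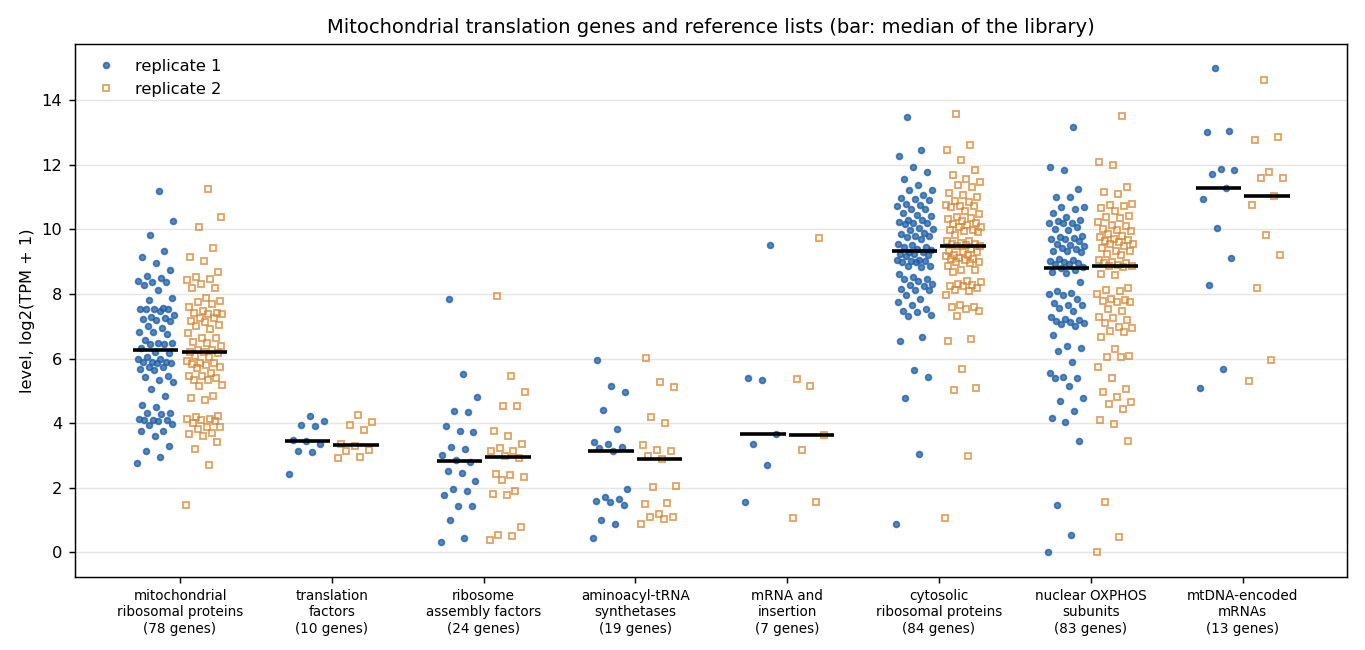
Level on the log2(TPM + 1) scale of each gene of 8 lists in replicate 1 (filled circles) and replicate 2 (open squares), with the median of each library as a bar. The members (medians 6.27 and 6.20) lie above the 4 lists of other mitochondrial translation genes (medians 2.83 to 3.66) and below the cytosolic ribosomal proteins, the nuclear OXPHOS genes and the mRNAs of the mitochondrial genome.

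Both libraries gave nearly the same profile over the members. Across the 78 genes, which are not independent replicates, Pearson's r of the log2 levels was 0.991 and Spearman's rho 0.990. The median difference, replicate 2 minus replicate 1, was -0.043 over the members and -0.013 over all genes, with 45 members lower and 33 higher in replicate 2. Of all protein-coding genes 55.0% were lower, a share close to that of the members. TPM values were within 1.5-fold of each other for 75 of the 77 members with a mean of at least 5 TPM, against 84.9% of all genes at that level. Mrpl10 was the only member to differ more than 2-fold on the log2(TPM + 1) scale, against 10.2% of all genes and 5.14% of protein-coding genes. Its intervals ran from 4.73 to 7.15 TPM in replicate 1 and from 0.840 to 3.22 TPM in replicate 2, and so did not overlap. On the opposite strand Mrpl10 shares 240 exonic bases with Gm11574, which had 8.34 and 2.53 TPM and so was also the lower in replicate 2.

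Counting intervals were compared for the 70 members with whole reads and a mean of at least 5 TPM. They did not overlap for 24, of which 14 were lower and 10 higher in replicate 2. Of all 6713 genes so tested, 22.0% were lower and 12.1% higher, so the members were near the background in both directions. Over all members with a mean of at least 5 TPM, which leaves out Mrpl10, the most negative differences were those of Mrps23 (18.7 and 11.9 TPM, a difference of -0.61), Mrps30 (-0.47), Mrpl32 (48.8 and 35.0 TPM, -0.47), Mrpl43 (58.5 and 42.7 TPM, -0.45) and Mrpl9 (-0.44). The most positive were those of Mrps6 (32.6 and 51.7 TPM, 0.65), Mrps35 (0.38), Mrps27 (21.9 and 27.7 TPM, 0.33), Mrpl44 (57.3 and 71.7 TPM, 0.32) and Mrpl37 (0.29). Whole reads were not recovered for Mrps6 and Mrpl43, so the counting error of these differences is not known. The spread narrowed with reads. It was an SD of 0.37 over the 21 members with under 300 reads in replicate 2, 0.20 over 29 with 300 to 1000 reads, and 0.12 over 21 with 1000 or more.

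**Figure D4:**
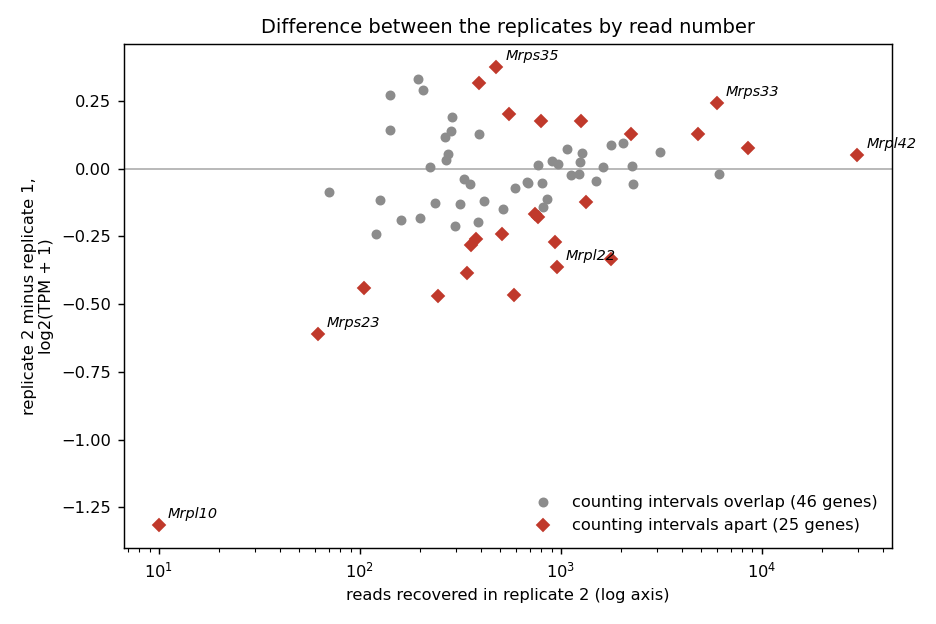
Replicate 2 minus replicate 1 on the log2(TPM + 1) scale against the reads recovered in replicate 2 (log axis) for the 71 members with whole reads, with red diamonds where the 95% counting intervals of the replicates do not overlap and grey circles where they do. The differences narrow towards high read numbers, and Mrpl10, with 10 reads, lies apart at -1.32.

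The length that a gene is divided by shaped the order of the members. The deposited values rest on the summed exons of all annotated transcripts, with a median of 2394 bases over the members, whereas their coding transcripts had a median of 1051.5 bases. The former exceeded the latter more than 2-fold in 31 members and more than 5-fold in 8, up to 15.3-fold in Mrpl33, with 7326 and 478 bases. The median of this ratio was 1.70 over the members and 1.73 over the protein-coding genes, so the members were near the background. Deposited TPM was lower in members of greater exonic length, with a Spearman rho across members of -0.51 in replicate 1 and -0.49 in replicate 2. Across the 9554 protein-coding genes at a mean of at least 1 TPM rho was -0.26 and -0.27. With levels recomputed per coding transcript length, rho with that length across members was -0.63 and -0.64, so the trend was not limited to the summed exons. The points of each such correlation share a library, and length enters TPM itself.

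Recomputed per coding transcript length, the ranks of the members correlated with the deposited ones with a rho of 0.882, and 7 of the 10 highest and 6 of the 10 lowest members were the same. Mrpl42 (7441 and 7692 TPM) and Mrpl10 (4.64 and 1.39 TPM) kept the ends of the order. Mrpl33 moved to the second place at 2891 and 3047 TPM. Mrpl17 was then at 545 and 524 TPM, above the other genes of the exit tunnel except Mrpl23 (736 and 767 TPM). The recomputed values were rescaled to a fixed total, which lowered every gene whose length was unchanged. Mrps28, with 783 bases under both lengths, was thus at 192 and 196 TPM. The sum of the members per coding transcript length was 23197 TPM on average, against 13884 TPM as deposited.

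**Figure D5:**
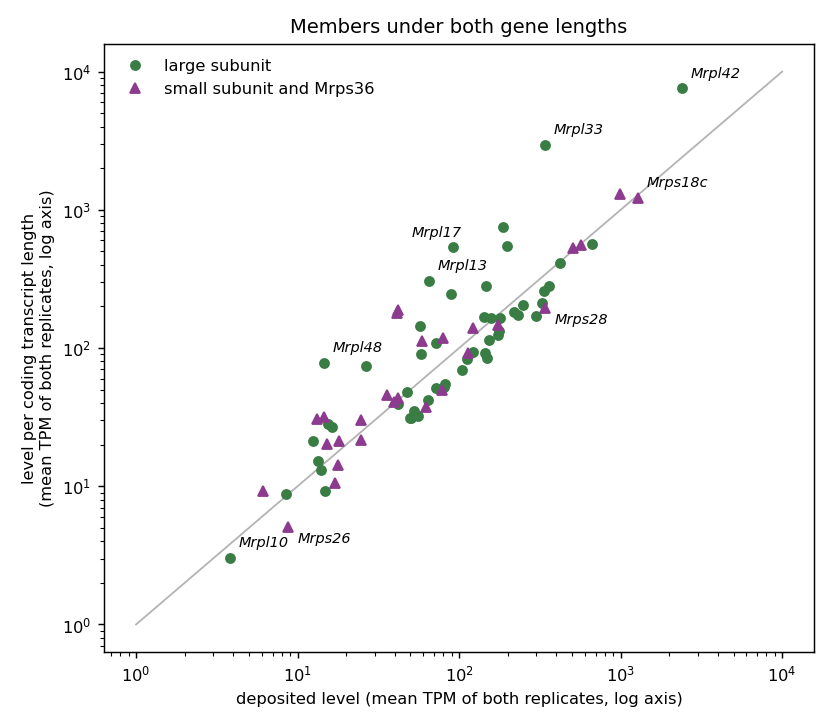
Mean TPM of each member over both replicates as deposited, per summed exonic length (horizontal log axis), and per median coding transcript length (vertical log axis), with large subunit genes by structure as green circles, the other members as purple triangles and equality as a line. Many genes lie at or somewhat below the line, since the recomputed values were rescaled to a fixed total. Those well above it include Mrpl33, Mrpl17, Mrpl13, Mrpl48, Mrps10, Mrps17, Mrpl23 and Mrpl42.

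Some members share sequence or exons with other genes, and how such reads were counted is not stated. In 19 members a coding transcript matched another gene's transcript at 95% identity or more over at least 200 bases, and each of the 19 had a pseudogene among its matches. The search was made for the members alone, so the share of all genes with such a copy is not known. Of the 49 pairs, 26 were those of Mrps26, nearly all over little more than 200 bases. The most abundant of the copies was Gm5776, a processed pseudogene of Mrps33 at 1056 and 1316 TPM, which are levels as high as those of Mrps33 itself (908 and 1074 TPM). Gm6419, which matches Mrpl42, had 390 and 408 TPM, so the values of Mrpl42 and Mrps33 are uncertain. Mrpl48-ps had 54.4 and 50.8 TPM, which was above Mrpl48 as deposited. Mrpl48 itself rose per coding transcript length, to values that were rescaled and so are not set against these. Mrpl23-ps1 had 99.6 and 100.05 TPM.

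Exons of 33 members overlapped with those of another gene, on the opposite strand in 28 and on the same strand in 8. Over 10% of the exonic bases were shared in 18. Overlaps were not counted for genes other than the members, so these counts do not show a trait particular to the members. Mrpl33 shares 261 bases with Gm43809, which was listed at 4879 and 5207 TPM, and Mrps18c shares 250 bases with Gm43511, at 390 and 430 TPM, both on the same strand. Mrps34 shares 63.4% of its exonic bases with Mapk8ip3 on the opposite strand and 37.0% with Nme3 on its own strand. Mrpl53 shares 88.0% with Gm42688 on the same strand, the largest share of any member, and Mrps25 shares 69.8% with Nr2c2 on the opposite strand. The strand setting is not given either, so from these values the reads of a member and of its neighbour within the shared bases cannot be told apart.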

How the data were processed

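RNA-seq libraries of E9.5 PGCs (1 group, n = 2) were used. The authors aligned reads to mm10 with Hisat2, counted them per gene with featureCounts and deposited TPM. Bowtie2, RSEM, R 3.4.2 and DESeq2 are also named in the submitters' processing notes, without a role. The annotation, strand setting and treatment of shared reads are not given in the sources used here. The table held 2 columns of samples and 17 symbols turned into dates, which were not used.

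Symbols were matched to GENCODE M21 on GRCm38, the assembly of mm10, and 18748 of 18877 had 1 gene ID. TPM multiplied by exonic length came within 0.02 of a whole multiple of 1 amount, taken as 1 read, for 96.7% and 95.8% of the values of up to 50 reads. The recovery was also run on simulated data. Those were built with the same exonic lengths, so they cannot show errors from a differing annotation. Levels were taken as log2(TPM + 1), which understates differences of low genes. Medians are given per library with the mean ± SD of both. No p-values were computed, since genes are not replicates. Head-to-head neighbours and copies (BLAST 2.17.0) came from the annotation. Python 3.11.15, pandas 2.3.3, scipy 1.17.1 and matplotlib 3.10.9 were used.

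The members and the gene lists were chosen with earlier results of these data known. Values are given for the 10 highest and 10 lowest members by mean TPM, the 5 most positive and 5 most negative replicate differences at a mean of at least 5 TPM, every gene of a list of 10 or fewer, Mrps36, and the 3 highest and 3 lowest of longer lists. Other genes (members named for their overlap, copy, length or neighbour) were named after their values were seen. Alternatives were the pseudocount, filters, scaling, each replicate left out, detection thresholds, assignment by structure, overlapping exons and, after seeing the data, coding length and near-identical copies.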

Additional observations from a re-analysis of the deposited data

How the results depend on the processing

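No paired analysis was possible because there was only 1 group. No value changed direction under the alternatives, and those that moved by more than the spread between replicates (for the median replicate difference, by 0.02 or more) are given here. With median ratio scaling the median replicate difference was -0.0017 instead of -0.043. With all 82 subunits assigned by structure, the large minus small subunit median was 1.13 and the summed TPM 14943, and with only Mrps30 and Mrps18a moved to the large subunit the former was 1.11. Without the members whose exons overlap another gene the median level was 6.29 and the large minus small difference 1.13. Set against protein-coding genes alone, the members' median was higher by 3.98 instead of 4.36. Leaving out either replicate gave a median level of 6.20 to 6.27, a large minus small difference of 1.30 to 1.43 and a bacterial-type excess of 0.64 to 0.75. With 2 libraries such a value cannot leave the spread between them, and the filters at a mean of 1 TPM and at 500 exonic bases removed no member, so these alternatives say nothing about stability. The remaining alternatives were chosen after seeing the data. Per coding transcript length the median level was 6.49, the large minus small difference 1.11, the bacterial-type minus mitochondria-specific difference 1.47, the difference from the cytosolic ribosomal proteins -3.50 and the summed TPM 23197. Without members that have a near-identical copy the median level was 6.03 and the large minus small difference 1.17, and without Mrpl42 the summed TPM was 11496. Depth limits the low members most, since Mrpl10 rests on 10 reads in replicate 2. The causes of these shifts were not tested.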

Other observations

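Some members start next to a gene of the opposite strand. A head-to-head neighbour with a row in the table, not overlapping the member, began within 1000 bases in 17 of the 78 members (21.8%), against 12.0% of the 12679 protein-coding genes. Only 8813 of the latter reached 1 TPM in both replicates, whereas all members did, so the shares do not show a trait particular to the members. Pairs with overlapping starts were not counted, such as the members Mrpl46 and Mrps11, which share 173 exonic bases on opposite strands and had 177 and 171 TPM and 18.9 and 17.4 TPM. Mrps18c, at 1221 and 1333 TPM, starts 29 bases from Helq, a DNA helicase gene, which had 1.91 and 0.177 TPM. Mrpl40, at 432 and 412 TPM, starts 175 bases from the histone chaperone gene Hira, at 4.12 and 2.39 TPM. The neighbour was higher than the member in both replicates for Mrpl49 with Fau (2846 and 3046 TPM), which encodes a cytosolic ribosomal protein fused to a ubiquitin-like protein, and Mrpl32 with the proteasome gene Psma2 (1395 and 1294 TPM). Mrps12 pairs with Sars2, the mitochondrial seryl-tRNA synthetase, at 128 and 98.1 TPM against 1.97 and 3.16 TPM, and so 2 genes of mitochondrial translation that start 172 bases apart stood at different levels.

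The mRNAs that the mitoribosome translates were among the most abundant, and uneven. All 13 had a row, with medians of 11.29 and 11.03 on the log2 scale, and 9 of 13 were lower in replicate 2. The range ran from mt-Cytb at 32566 and 25420 TPM to mt-Nd4l at 32.9 and 38.3 TPM. These RNAs are cut from long shared precursors, and their values per length have no direct counterpart among the members.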
